A study of Homo sapiens with 95 samples.

Results

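The fibroblast growth factor (FGF) receptors and their partners were followed in AALE cells, an immortalized human bronchial epithelial line. They were taken by gene symbol: the receptors FGFR1, FGFR2, FGFR3 and FGFR4, the kinase-less receptor FGFRL1, the ligand FGF2, the ligand carrier FGFBP1 and the adaptor FRS2, which are 8 of the 23895 genes listed for every well. Expression was read by 3′ digital gene expression (3′DGE), in which each captured molecule carries a unique molecular identifier (UMI) and each UMI adds 1 count. Levels are given as CPM, counts scaled to the well's total. The wells held 8 populations. AALE cells overexpressing NRF2 (gene NFE2L2), FGFR1, NRG1 or PIK3CA were compared with cells carrying an empty vector with the HcRed reporter. AALE cells with a CRISPR knockout of FAT1 or CDKN2A were compared with cells given a Cas9-EGFP plasmid without a guide, called GFP cells. Cells received DMSO as vehicle or 1 of 3 chemicals: 24 µg/ml of smoke condensate from cigarettes (CSC), 173 µM of benzo[a]pyrene (BaP) and 490 µM of NNK, a nitrosamine of tobacco. The promoter driving the overexpressed genes, and whether knockout cells were a single clone, were not given in the sources used here.

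FGF ligands bind receptor tyrosine kinases together with heparan sulfate, and the activated receptor phosphorylates the docking protein FRS2, which recruits adaptors that switch on the RAS-ERK pathway. FGFBP1 is a secreted protein that releases FGFs stored on heparan sulfate of the extracellular matrix. FGFRL1 binds FGFs but has no kinase domain. In airway epithelium, FGF receptors act in lung branching and in basal cell maintenance, and FGFR1 is amplified in a share of squamous lung cancers.

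Most comparisons used the 82 wells with a replicate number of 1 digit. There were 3 wells in 25 of the 31 groups and a total of 692446 to 1895735 counts per well. CDKN2A cells had no 1-digit well under CSC, so their results over all chemicals cover DMSO, BaP and NNK only. Of the markers of basal airway epithelium, 8 of 8 had a mean count above 1, and their summed level ran from 361 to 998 CPM. The summed level of 7 fibroblast markers ran from 0 to 15.8 CPM (DCN from 0 to 15.8 CPM), that of 4 endothelial markers from 0 to 5.42 CPM with VWF and CDH5 at 0 in every well, and that of 5 secretory and ciliated markers from 0 to 2.75 CPM with MUC5B and FOXJ1 at 0. The 4 leukocyte markers summed to between 9.23 and 44 CPM, of which CD68 was at 4.20 to 37.2 CPM, with CD3E at 0. Under DMSO each targeted gene lay on the labelled side of its control in every well. CDKN2A stood at 19.0 to 23.8 CPM in CDKN2A cells against 34.9 to 38.6 CPM in GFP cells, but HcRed cells had a like range, 20.5 to 23.5 CPM. Every plate row held 1 chemical, so chemical and row cannot be told apart. Each population kept the same columns and the same row of each chemical's pair of rows, with 2 populations to a set of columns, so population and plate position cannot be told apart either. NRF2 and HcRed cells shared their columns and differed in row. The well NRG1 NNK replicate 2 stood apart from its group. FGFR3 in NRG1 cells, FGFBP1 under NNK and the number of genes called in those fits are also given without it. Other results that include this well, such as the pathway calls of NRG1 cells and of NNK, are given only with it. In whole-well RNA, fewer cells of a type and less RNA per cell cannot be told apart.

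Among the 8 genes, FGFBP1 varied most clearly. Its mean under DMSO was 5.61 times higher in CDKN2A knockout cells than in FAT1 knockout cells, and it rose or fell in 4 of the 7 population comparisons under DMSO. FGFR1 rose in the cells that overexpress it. FGF2 was lowest in GFP cells, followed by NRF2 and NRG1 cells. FGFR2, FGFR3 and FGFRL1 passed the threshold in no main comparison. FGFR4 was almost undetected.

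FGFR1 (hg19 chromosome 8, 38257733 to 38326352, minus strand) encodes the receptor that was overexpressed in 1 population. Under DMSO its level in FGFR1 cells was 22.2, 21.7 and 24.8 CPM, against 1.71, 7.35 and 3.10 CPM in HcRed cells. The groups did not overlap, with a limma log2 change (the log2 of the fold change) of 2.53 (SE 0.41, adjusted p = 6.9e-07). It was the only member called in this comparison, in which 0.905% of the tested genes were called. Under NNK the FGFR1 cells had 18.3, 23.5 and 23.1 CPM and HcRed cells averaged 3.88. The single 1-digit CSC well had 22.3 CPM. The single BaP well, at 12.1, was the lowest of the 8 FGFR1 wells. None of the 74 wells of other populations exceeded 7.35 CPM, so the lowest FGFR1 well still lay above them. Over all chemicals the limma log2 change was 2.56 (SE 0.26, adjusted p = 2.7e-13), 1 of 2 members called where 5.76% of genes were called.

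Outside that population FGFR1 was sparse. Summed over wells its level ran from 1.93 CPM in FAT1 cells (95% exact Poisson interval 1.34 to 2.68, counting error only) to 3.99 in NRG1 cells (3.00 to 5.19). Under DMSO the wells of each neighbouring pair of populations below FGFR1 cells overlapped. LETM2 lies on the opposite strand across the 3′ end of FGFR1, and the sources used here do not say whether counting kept strand. LETM2 stood at 20.6 CPM in FGFR1 cells and 24.3 in HcRed cells, and its part in the FGFR1 counts was not tested. The counts do not separate RNA of the construct from that of the cell's own gene, and 3′ tags do not tell FGFR1 splice isoforms apart.

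**Figure D1:**
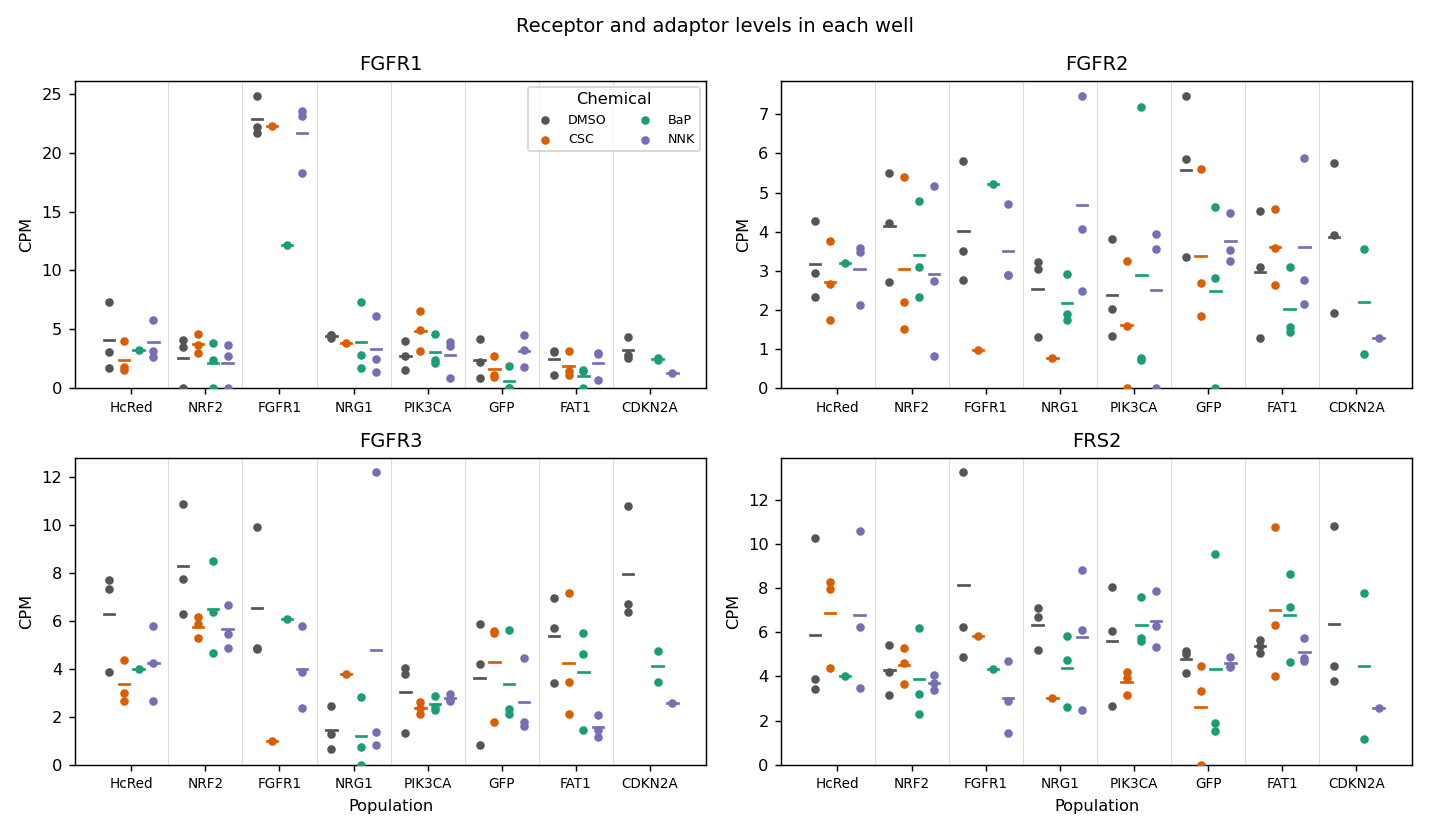
Level in CPM (vertical axis, linear) of FGFR1, FGFR2, FGFR3 and FRS2 in each of the 82 wells by population (horizontal axis), coloured by chemical, with a bar at each group mean. The 8 FGFR1 wells of FGFR1 cells (12.1 to 24.8 CPM) lie above all others, while the other genes' wells overlap widely and FGFR3 shows 1 high NRG1 NNK well at 12.2 CPM.

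FGFR2 (hg19 chromosome 10, 123237846 to 123357972) encodes the receptor whose epithelial splice form answers ligands of the mesenchyme. Its summed level ran from 2.28 CPM in PIK3CA cells (95% exact Poisson interval 1.60 to 3.16) to 3.88 in GFP cells (2.90 to 5.08). Under DMSO, GFP cells had 3.36, 7.48 and 5.86 CPM and PIK3CA cells 1.32, 2.01 and 3.80. Those ranges overlapped. Against HcRed cells over all chemicals, PIK3CA cells differed by a limma log2 change of -0.76 (95% interval -1.52 to -0.01, adjusted p = 0.19), which did not pass.

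FGFR3 (hg19 chromosome 4, 1795020 to 1810599) encodes a receptor that is mutated in urothelial tumours. Under DMSO its level in NRG1 cells was 1.29, 0.648 and 2.44 CPM, against 7.70, 7.35 and 3.87 in HcRed cells. Every NRG1 well lay below every HcRed well, but the limma log2 change of -1.89 (SE 0.59) missed the threshold at adjusted p = 0.060, and no member was called where 3.10% of genes were. edgeR's quasi-likelihood test called it on the same wells. Under DMSO the summed basal markers were at 432 to 494 CPM in NRG1 cells against 918 to 953 CPM in HcRed cells, and the fibroblast markers at 6.46 to 15.8 against 1.47 to 5.13 CPM. Their part was not tested. Over all chemicals the change was -1.09 (SE 0.38, limma adjusted p = 0.26), with no member called where 1.11% of genes were. The well that stands apart, NRG1 NNK replicate 2, had 12.2 CPM against 1.36 and 0.826 in its group, and it held 18 of the 37 FGFR3 counts of NRG1 cells. Without it, FGFR3 passed. The highest DMSO means were those of NRF2 cells, 8.31 CPM (SD 2.35, n = 3), and CDKN2A cells, 7.95 CPM (SD 2.47, n = 3). Against their controls over all chemicals, the limma log2 changes were 0.57 in NRF2 cells (adjusted p = 0.095) and 0.74 in CDKN2A cells (adjusted p = 0.11).

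FGFR4 (hg19 chromosome 5, 176513906 to 176525145), the receptor through which FGF19 acts in liver, had 15 counts in all, spread over 14 of the 82 wells, and was too sparse for any test. No count fell in the 10 HcRed wells, which allows up to 0.267 CPM (3 counts over the group). The highest summed level was 0.254 CPM in PIK3CA cells (95% exact Poisson interval 0.0691 to 0.650). A difference between populations was not detectable at this depth.

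FGFRL1 (hg19 chromosome 4, 1003724 to 1020686) had 117 counts over 61 of the 82 wells. Its summed level ran from 0.660 CPM in FAT1 cells (95% exact Poisson interval 0.341 to 1.15) to 1.57 in GFP cells (0.969 to 2.39). GFP cells averaged 3.48 CPM under CSC and 1.92 under NNK, but 0.804 under DMSO and 0.258 under BaP. FAT1 cells averaged 0.972, 0.676, 0.612 and 0.257 in the same order. Over all chemicals FAT1 cells differed from GFP cells by a limma log2 change of -0.82 (95% interval -1.63 to -0.01, adjusted p = 0.12). In both knockout comparisons under DMSO, and in CDKN2A against GFP cells over all chemicals, its mean count was at or below 1 and it was not tested.

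FGF2 (hg19 chromosome 4, 123747837 to 123819391), a ligand without a classical secretion signal, was lowest in GFP cells. These had 6 counts in 12 wells, 7 of them at 0, and a summed level of 0.447 CPM (95% exact Poisson interval 0.164 to 0.974). NRF2 cells, at 0.935 CPM (0.523 to 1.54), and NRG1 cells, at 1.01 (0.555 to 1.70), had intervals that overlapped that of GFP cells. The summed level was 1.76 CPM in FAT1 cells (1.20 to 2.49), 1.99 in CDKN2A cells (1.11 to 3.28) and 1.69 in HcRed cells (1.02 to 2.64). Under DMSO, GFP cells had 0.839, 0 and 0.733 CPM, below the 3.81, 2.27 and 1.54 of FAT1 cells and the 1.12, 3.60 and 1.27 of CDKN2A cells.

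Over all chemicals FGF2 was higher in FAT1 than in GFP cells, with a limma log2 change of 1.37 (SE 0.40, adjusted p = 0.0052), and higher in CDKN2A than in GFP cells, at 1.46 (SE 0.54, adjusted p = 0.029). It was lower in GFP than in HcRed cells, at -1.35 (SE 0.43, adjusted p = 0.012). These fits share the GFP wells, so their calls are not separate evidence. Leaving out the wells numbered 2 ended all of them, at 1.21 in FAT1 cells (limma adjusted p = 0.065), 1.02 in CDKN2A cells (adjusted p = 0.23) and -1.41 for GFP against HcRed cells (adjusted p = 0.073). Leaving out the wells numbered 1 ended the CDKN2A call, at 1.22 (adjusted p = 0.21), and the GFP against HcRed call, at -1.28 (adjusted p = 0.075). Leaving out the wells numbered 3 took FGF2 below the count filter in GFP against HcRed cells. DESeq2 did not call the CDKN2A or the GFP against HcRed difference either, and edgeR did not call that of CDKN2A cells. NUDT6, on the opposite strand across the 3′ end of FGF2, also had its lowest summed level in GFP cells, 0.745 CPM against 1.60 in HcRed cells, and its part in these counts was not tested.

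FGFBP1 (hg19 chromosome 4, 15937200 to 15940363, minus strand), the carrier, averaged 327 counts per well and was the only member counted deeply enough to follow in single wells. Its RefSeq promoter window, 250 bases before to 50 after the gene's start on the minus strand of GRCh38.p14 (chr4:15938691-15938990), is printed because it belongs to the member that moved most often. The window of FGF2 (plus strand, chr4:122826581-122826880) is printed beside it for contrast, with the core letters GCGTG bound by the aryl hydrocarbon receptor, the sensor of BaP, in capitals.
FGFBP1: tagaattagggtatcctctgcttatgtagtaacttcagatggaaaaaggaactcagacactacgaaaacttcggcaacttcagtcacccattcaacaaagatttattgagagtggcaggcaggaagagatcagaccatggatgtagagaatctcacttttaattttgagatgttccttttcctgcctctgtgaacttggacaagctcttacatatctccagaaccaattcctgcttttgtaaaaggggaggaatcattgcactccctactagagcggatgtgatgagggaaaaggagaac
FGF2: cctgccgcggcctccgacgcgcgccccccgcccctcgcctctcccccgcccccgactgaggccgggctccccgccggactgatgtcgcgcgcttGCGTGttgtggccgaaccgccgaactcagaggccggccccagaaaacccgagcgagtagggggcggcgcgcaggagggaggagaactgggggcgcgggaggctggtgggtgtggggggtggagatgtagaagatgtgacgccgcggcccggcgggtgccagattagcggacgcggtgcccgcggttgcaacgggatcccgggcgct
The FGFBP1 window held neither GCGTG nor the AP-1 letters TGANTCA on either strand, and 42.0% of its bases were G or C, against a median of 58.7% over all 35116 RefSeq windows of this length. The FGF2 window held GCGTG 1 time and was 74.7% G or C. GCGTG was present in 36.5% and TGANTCA in 7.71% of all windows. The RefSeq table used here matched 7 members, with 12 windows, of which 4 held GCGTG and 0 held TGANTCA.

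The level of FGFBP1 on total counts separated most neighbouring populations under DMSO. CDKN2A cells had 557, 538 and 587 CPM and GFP cells 379, 444 and 389 CPM. PIK3CA cells followed with 273, 274 and 313 CPM, then HcRed cells with 284, 235 and 259 CPM. The wells of these 2 overlapped. NRG1 cells had 210, 234 and 214 CPM and FGFR1 cells 188, 214 and 185 CPM, which overlapped too. NRF2 cells had 175, 164 and 168 CPM, and FAT1 cells were lowest at 93.3, 112 and 94.1 CPM. In this order each of the other neighbouring pairs of populations was separate.

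**Figure D2:**
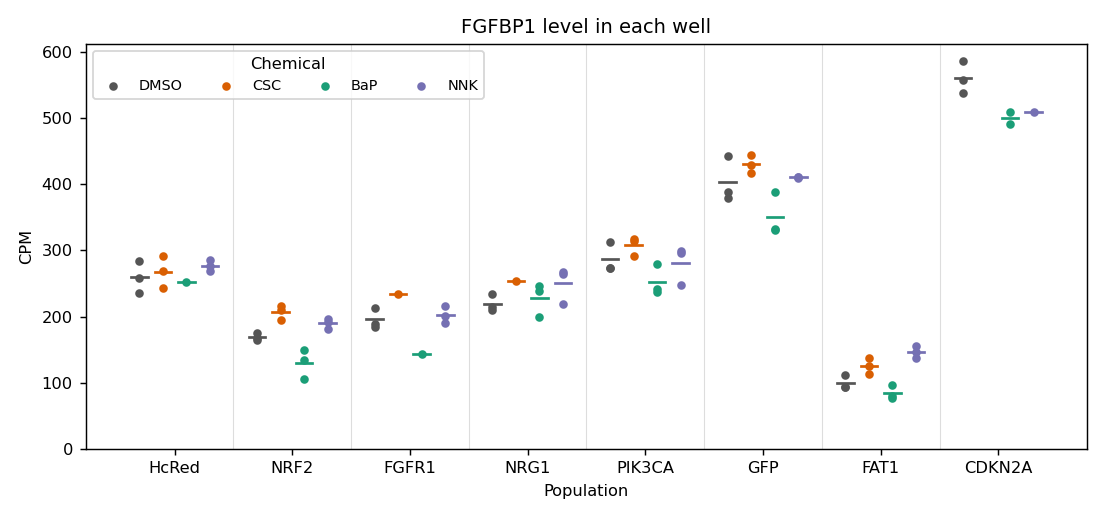
FGFBP1 level in CPM (vertical axis, linear from 0) in each of the 82 wells by population (horizontal axis), coloured by chemical, with a bar at each group mean. FAT1 cells (76.4 to 155 CPM) overlap only with the lower NRF2 and FGFR1 wells, and CDKN2A cells (492 to 587 CPM) lie above all others.

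FGFBP1 fell in FAT1 knockout cells. Under DMSO the limma log2 change against GFP cells was -1.95 (SE 0.10, adjusted p = 2.0e-32), and FGFBP1 was the only member called where 14.1% of genes were. Over all chemicals the change was -1.73 (SE 0.06, adjusted p = 3.1e-36), 1 of 3 members called where 33.1% of genes were. The 12 FAT1 wells reached at most 155 CPM and the 12 GFP wells had at least 331 CPM. Within each chemical the means were 125 against 430 CPM under CSC, 84.3 against 351 under BaP and 146 against 410 under NNK. The summed basal markers were also lower in FAT1 cells under DMSO, at 422 to 474 CPM against 635 to 768 CPM in GFP cells, and their part in the result was not tested. Under DMSO they were at 918 to 953 CPM in HcRed cells and lower in every other population but NRF2 cells, at 852 to 998 CPM. Against HcRed cells the mean of FGFBP1 was higher in GFP, PIK3CA and CDKN2A cells. It was lower in NRF2, FGFR1, NRG1 and FAT1 cells.

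FGFBP1 rose in CDKN2A knockout cells by a smaller amount. The limma log2 change against GFP cells was 0.36 under DMSO (SE 0.11, adjusted p = 0.010), the only member called where 17.9% of genes were. The wells of both groups were separate on total counts, but the fit used TMM library sizes. Over all wells used, the TMM factor was 1.24 for CDKN2A DMSO replicate 2 and 1.02 for GFP DMSO replicate 2. Divided by these factors, that CDKN2A well (538 CPM) fell below that GFP well (444 CPM), so the groups overlapped on this scale. Leaving out GFP DMSO replicate 1 or 3 ended this call, with changes of 0.34 and 0.35 (limma adjusted p = 0.088 and 0.092). Leaving out CDKN2A DMSO replicate 1 or 3 ended it too, with changes of 0.34 and 0.32 (adjusted p = 0.053 and 0.053). Over all chemicals the change was 0.37 (SE 0.07, adjusted p = 2.9e-06), 1 of 2 members called where 31.3% of genes were. That fit held no CSC wells.

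The 2 controls differed from each other. FGFBP1 was higher in GFP than in HcRed cells by a limma log2 change of 0.69 under DMSO (SE 0.08, adjusted p = 1.2e-09), the only member called where 10.8% of genes were. Over all chemicals it was 0.62 (SE 0.05, adjusted p = 2.8e-17), 1 of 2 members called where 26.3% of genes were. The 12 GFP wells began at 331 CPM and the 10 HcRed wells ended at 292 CPM.

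Among the overexpression populations FGFBP1 fell in NRF2 cells. NRF2 is the master regulator of the antioxidant response. The limma log2 change against HcRed cells was -0.52 under DMSO (SE 0.09, adjusted p = 6.0e-06), the only member called where 4.92% of genes were, and -0.51 over all chemicals (SE 0.06, adjusted p = 4.4e-11), the only one called where 11.8% were. The 12 NRF2 wells reached at most 216 CPM, below the 235 CPM of the lowest of the 10 HcRed wells. The HcRed BaP wells with 2-digit numbers, left out of the fit, had 174 and 232 CPM, the lower of them within the NRF2 range.

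In FGFR1 cells FGFBP1 changed by a limma log2 change of -0.41 under DMSO (SE 0.12), which missed the threshold at adjusted p = 0.061, and passed without FGFR1 DMSO replicate 2 or without replicate 3. Over all chemicals it fell, at -0.43 (SE 0.07, adjusted p = 5.3e-07). Under DMSO the summed basal markers were at 691 to 806 CPM in FGFR1 cells against 918 to 953 CPM in HcRed cells, and their part was not tested. The 8 FGFR1 wells reached at most 234 CPM of FGFBP1, just below the lowest HcRed well, but an HcRed BaP well with a 2-digit number, left out of the fit, had 174 CPM. In NRG1 cells the change was -0.15 under DMSO (adjusted p = 0.38) and -0.17 over all chemicals (adjusted p = 0.60).

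PIK3CA cells differed from HcRed cells by a limma log2 change of 0.21 under DMSO (adjusted p = 0.14), with no member called where 5.37% of genes were. Over all chemicals FGFBP1 was called at 0.15 (SE 0.05, adjusted p = 0.033), alone among the members where 14.5% of genes were. The wells of both populations overlapped. The summed basal markers under DMSO were lower in PIK3CA cells, at 438 to 521 CPM against 918 to 953 CPM. The call was lost in DESeq2 (0.15, adjusted p = 0.052), without the filter on low counts (adjusted p = 0.075), without the wells numbered 1 (adjusted p = 0.10) and without those numbered 2 (0.11, limma adjusted p = 0.34).

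**Figure D3:**
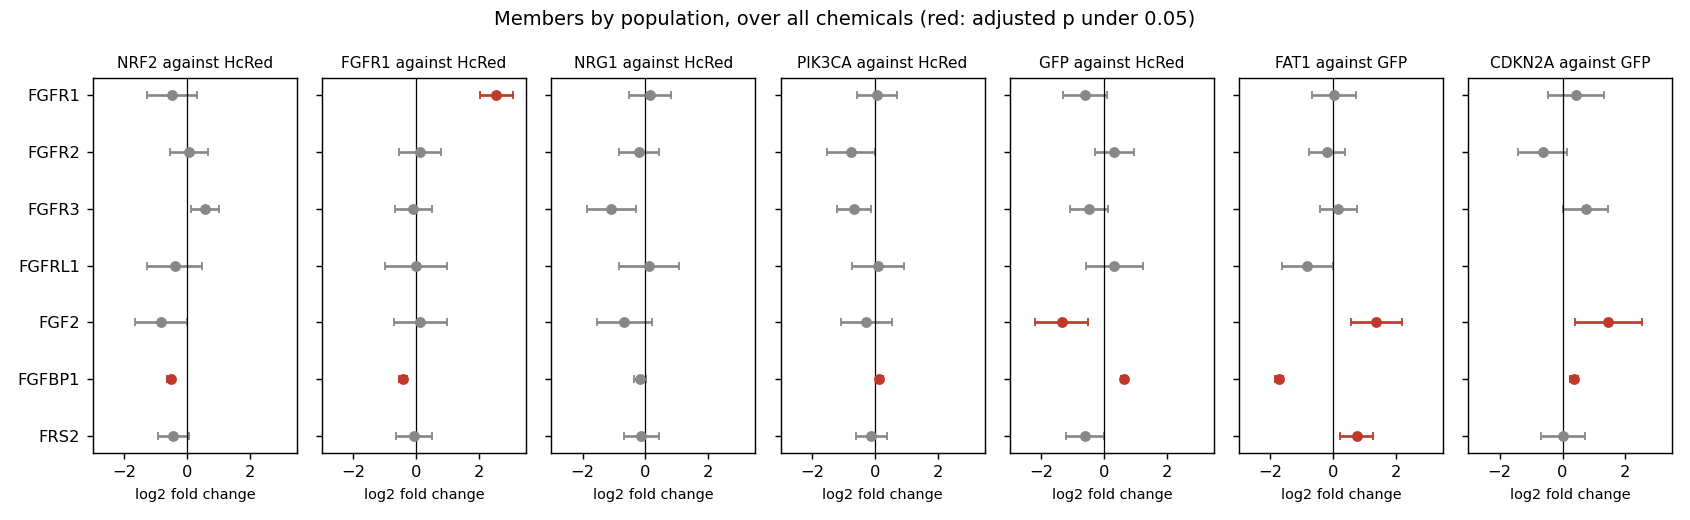
Limma log2 fold change (horizontal axis) of 7 members (rows; FGFR4 was tested in no panel, and FGFRL1 not in CDKN2A against GFP cells) in each population against its control over all chemicals, with 95% confidence intervals, red where the adjusted p was under 0.05. FGFBP1 carries the narrowest intervals and is red in 6 of the 7 panels, while FGFR1 reaches 2.56 in FGFR1 cells.

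FRS2 (hg19 chromosome 12, 69864129 to 69973573), the docking protein, had a summed level of 6.00 CPM in FAT1 cells (95% exact Poisson interval 4.92 to 7.23) and 4.03 in GFP cells (3.02 to 5.25). GFP cells had the lowest level, next to NRF2 cells at 4.11 (3.18 to 5.23). HcRed cells, at 6.24 (4.86 to 7.88), stood near FAT1 cells. Over all chemicals FRS2 was higher in FAT1 than in GFP cells, with a limma log2 change of 0.74 (SE 0.27, adjusted p = 0.025). Under DMSO the FAT1 wells had 5.08, 5.66 and 5.40 CPM and the GFP wells 5.04, 4.15 and 5.13. These overlapped, at 0.20 (SE 0.42, adjusted p = 0.83). The call was lost in DESeq2 (0.65, adjusted p = 0.070), and in limma when the wells numbered 1, 2 or 3 were left out, at 0.65, 0.69 and 0.74 (adjusted p = 0.14, 0.067 and 0.097).

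The chemicals moved FGFBP1 by smaller amounts than most of the genotypes did. CSC, the particulate mixture of cigarette smoke, raised it across 5 populations by a limma log2 change of 0.15 (SE 0.04, adjusted p = 0.013), the only member called where 5.82% of genes were. BaP, an aryl hydrocarbon receptor ligand, lowered it across 5 populations, at -0.14 (SE 0.05, adjusted p = 0.038), alone where 9.11% were called. NNK raised it across 7 populations, at 0.18 (SE 0.06, adjusted p = 0.035), alone where 7.22% were called.

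NRF2 cells showed the changes well by well, and FAT1 cells did so clearly only under NNK. In NRF2 cells FGFBP1 was at 175, 164 and 168 CPM under DMSO, 216, 210 and 194 under CSC, 181, 192 and 196 under NNK, and 134, 149 and 105 under BaP. All CSC and NNK wells lay above and all BaP wells below the DMSO wells. In FAT1 cells the level was 93.3, 112 and 94.1 CPM under DMSO, 113, 137 and 125 under CSC, 138, 146 and 155 under NNK, and 96.6, 76.4 and 80.0 under BaP. The NNK mean was 46.5% above DMSO, and the BaP wells overlapped those under DMSO. In the remaining populations with 3 wells under both, the wells overlapped: 3 of 5 populations for CSC, 4 of 5 for BaP with FAT1 cells counted, and 5 of 7 for NNK.

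**Figure D4:**
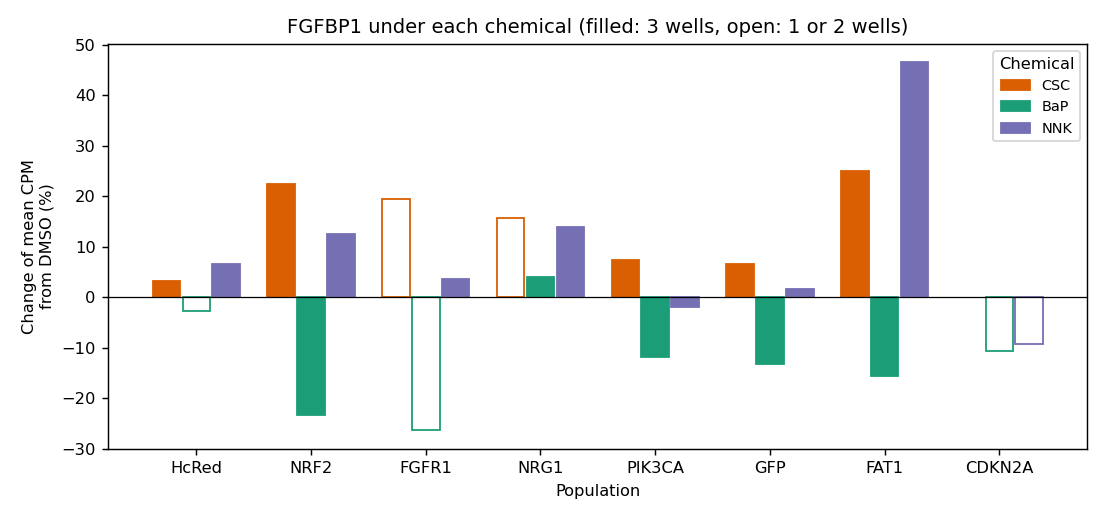
Change of the mean FGFBP1 level from DMSO in percent (vertical axis) by population (horizontal axis) and chemical (colour), filled where the chemical had 3 wells and open where it had 1 or 2. FAT1 cells under NNK show the tallest bar, at 46.5%, and BaP bars are below 0 in every population but NRG1 cells.

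Each of these chemical calls depended on single replicate numbers. The CSC call was lost without the wells numbered 1 (0.15, limma adjusted p = 0.066) or 2 (0.14, adjusted p = 0.11). That of BaP was lost without those numbered 2 (-0.14, adjusted p = 0.18) or 3 (-0.08, adjusted p = 0.49), in DESeq2, under median-ratio size factors and without the filter on low counts. That of NNK was lost without those numbered 1 (0.16, adjusted p = 0.30) or 3 (0.16, adjusted p = 0.26), and was 0.21 (adjusted p = 5.3e-05) without NRG1 NNK replicate 2. The median total was 1426280 counts under DMSO, 1318389 under CSC, 1255412 under BaP and 1171386 under NNK, and the part of depth was not tested.

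No member's response differed between populations past the threshold, where limma called 0.106% of genes in the CSC fit, 0.115% in that of BaP and 0.0176% in that of NNK. For FGFBP1 the adjusted p was 0.93, 0.75 and 0.80, and the unadjusted p was 0.39, 0.084 and 0.068. The fits of each chemical against DMSO across populations are a separate test, of the chemical effect itself. There the other 6 tested members ran from a limma log2 change of -0.45 for FGFR1 under BaP (95% interval -1.10 to 0.19) to 0.59 for FGFRL1 under CSC (-0.10 to 1.27), with adjusted p from 0.31 to 0.98.

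FGFBP1 was the 1 member with a mean of at least 10 counts per well, and its pattern over the 82 wells was compared with that of 3952 well-counted genes. The most alike on the log2 CPM scale were ACOT9, a mitochondrial acyl-CoA thioesterase (Pearson r = 0.83), PDCD10 (r = 0.82) and the endoplasmic reticulum peroxiredoxin PRDX4 (r = 0.81). By Spearman's rho ACOT9 and PDCD10 led again (0.83 and 0.83), followed by NOP10 (0.79). The wells fall into the same 8 populations and plate positions, so these values are descriptions.

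The rest of the pathway was read from 71 listed genes, of which 39 had a mean count above 1. Of the 21 other ligands 2 reached that level and 9 had no count in any well, and both other carriers, FGFBP2 and FGFBP3, were below it. Of the co-receptors and proteoglycans 5 of 10 reached it, of the heparan sulfate enzymes 8 of 10, of the adaptors 9 of 10, of the inhibitors 9 of 12 and of the targets 6 of 6.

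In FGFR1 cells 3 of 35 tested pathway genes were called over all chemicals, all lower, where 5.76% of genes were called. They were the cell cycle gene CCND1 (limma log2 change -1.41, adjusted p = 4.1e-12), the ETS factor gene ETV5 (-1.51, adjusted p = 0.0055) and the syndecan SDC1 (-0.67, adjusted p = 0.014). Under DMSO, CCND1 averaged 13.7 CPM in FGFR1 cells (SD 3.09, n = 3) and 47.3 CPM in HcRed cells (SD 10.5, n = 3). The median change over the 35 genes was -0.12, and 0.01 over all genes.

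In CDKN2A against GFP cells 14 of 38 were called, 13 higher and 1 lower, where 31.3% of genes were, and the median change was 0.60 against 0.01 over all genes. All 6 targets were higher, among them CCND1 (limma log2 change 1.75, adjusted p = 3.5e-16) and MYC (1.51, adjusted p = 3.9e-08). DUSP6, the ERK phosphatase, rose by 2.65 (adjusted p = 8.7e-12), and SULF2, which trims heparan sulfate, was lower at -1.17 (adjusted p = 0.0025). In GFP against HcRed cells 10 of 35 were called, 2 higher and 8 lower, where 26.3% of genes were, with CCND1 at -1.64 (limma adjusted p = 1.5e-16) and MYC at -1.34 (adjusted p = 6.9e-09). The GFP wells enter both comparisons.

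FAT1 against GFP cells had 9 of 36 called, 2 higher and 7 lower, where 33.1% of genes were. The ETS factor genes ETV1 (limma log2 change -2.08, adjusted p = 6.4e-07) and ETV5 (-1.18, adjusted p = 0.00036) and the sulfatase SULF2 (-0.96, adjusted p = 0.00016) were lower, and the adaptor CRK was higher at 0.68 (adjusted p = 0.0039). Under DMSO alone limma called 0 of 36, against 14.1% of all genes.

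In PIK3CA cells 9 of 38 were called, 6 higher and 3 lower, where 14.5% of genes were. DUSP6 was higher at a limma log2 change of 1.04 (adjusted p = 0.00078). NRF2 cells had 4 of 36 called, all lower, where 11.8% of genes were, led by CCND1 at -1.07 (adjusted p = 8.2e-12). NRG1 cells had 1 of 38, SULF2, lower at -1.08 (adjusted p = 0.0075), where 1.11% of genes were.

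Across the chemicals 5 of 38 pathway genes were called for CSC, 4 higher and 1 lower, where 5.82% of genes were. The AP-1 gene FOSL1 was higher at a limma log2 change of 1.89 (adjusted p = 9.5e-07), DUSP6 at 1.24 (adjusted p = 3.2e-05) and MYC at 0.66 (adjusted p = 0.00068), and the ligand FGF1 was lower at -1.13 (adjusted p = 0.043). For BaP 3 of 38 were called and for NNK 4 of 37, where 9.11% and 7.22% of genes were. MYC was higher in both, at 0.65 (limma adjusted p = 0.0049) and 0.42 (adjusted p = 0.037), and the phosphatase gene PTPN11, which acts downstream of FRS2, was lower, at -0.25 (adjusted p = 0.026) and -0.33 (adjusted p = 0.0023). The chemical comparisons share the DMSO wells.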

How the data were processed

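UMI counts of 3′DGE (SCRB-seq) libraries were analysed for 95 wells of AALE cells. The authors deposited raw counts per gene symbol, not normalized. Per the study's methods, reads were aligned to RefSeq transcripts of hg19 (BWA 0.7.10 in the submitters' processing notes) and each UMI was counted once. Whether counting kept strand is not given in the sources used here. Groups and replicate numbers came from the sample titles. The 13 wells with 2-digit numbers were left out of the main fits. The study calls its wells biological replicates, while the labels do not say that they were separate cultures, so p-values may measure only the spread between wells. Counts were fitted with limma 3.58.1 (voom, TMM factors from edgeR 4.0.16, R 4.3.3) on the compared groups, over genes with a mean count above 1, two-sided, with Benjamini-Hochberg adjustment over all tested genes and a threshold of 0.05. Prior degrees of freedom ran from 32.7 to 96.3, and were unbounded for FGFR1 against HcRed cells under DMSO, so small p-values rest largely on variance shared between genes. Fits over all chemicals took the chemicals with a 1-digit well in both populations, with chemical as a covariate. Fits of CDKN2A against GFP cells therefore left out CSC. Chemical fits took populations with 3 wells under both conditions, with population as a covariate. Alternatives were edgeR's quasi-likelihood test, DESeq2 1.42.0, median-ratio size factors, no count filter, a replicate block, left-out wells and summed 2-digit wells. CPM used total counts, and exact Poisson intervals (scipy 1.17.1, 95%) and limits from 3 counts cover counting error only. Gene positions came from a GENCODE annotation of hg19. Likeness used TMM log2 CPM with a prior count of 2, among genes with a mean of at least 20 counts. Pathway genes named are up to 3 per comparison and direction with the smallest adjusted p. The members and lists were chosen with earlier results of these data known. The scripts were tested on simulated data.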

Additional observations from a re-analysis of the deposited data

Results flagged for a closer look

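Wells with 2-digit replicate numbers entered no main comparison. Their FGFBP1 or FGFR1 levels lay outside every DMSO control well in 6 cases, which stood out for that reason. FGFBP1 averaged 488 CPM in the 3 such CDKN2A CSC wells, below all 3 CDKN2A DMSO wells (538 to 587 CPM). It averaged 223 CPM in 2 FGFR1 CSC wells and 239 CPM in 2 NRG1 CSC wells, above the DMSO wells of the same population (185 to 214 and 210 to 234 CPM). It averaged 203 CPM in 2 HcRed BaP wells, below the HcRed DMSO wells (235 to 284 CPM). FGFR1 averaged 15.7 CPM in 2 FGFR1 BaP wells and 23.1 CPM in 2 FGFR1 CSC wells, above every HcRed DMSO well (1.71 to 7.35 CPM). The labels do not say whether these wells are separate cultures, and no test was run on them alone.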

How the results depend on the processing

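No called member changed direction under any alternative run. Counts of members called fell to 0 for PIK3CA against HcRed cells over all chemicals in DESeq2 and without the count filter, and to 0 for BaP in DESeq2, with median-ratio size factors and without the filter. They fell to 1 for CDKN2A against GFP cells over all chemicals in edgeR and DESeq2, to 1 for GFP against HcRed cells over all chemicals in DESeq2, and from 3 to 2 for FAT1 against GFP cells over all chemicals in DESeq2, with FRS2 lost. They rose to 1 for NRG1 against HcRed cells under DMSO in edgeR and over all chemicals without NRG1 NNK replicate 2, and to 2 for NRF2 against HcRed cells over all chemicals with the 2-digit wells summed in, FGFR3 being gained each time. With wells left out, the number called ran from 1 to 2 for FGFR1 against HcRed cells under DMSO, from 0 to 1 for NRG1 against HcRed cells under DMSO and over all chemicals, from 0 to 1 for CDKN2A against GFP cells under DMSO, from 0 to 1 for PIK3CA against HcRed cells over all chemicals, from 1 to 2 for FAT1 and for CDKN2A against GFP cells over all chemicals, and from 0 to 1 for each chemical. It was 1 throughout for GFP against HcRed cells over all chemicals. The cause was not tested. Same-numbered wells did not vary together in every pair of any comparison, so the numbers were not read as pairs. With the replicate as a block, CDKN2A against GFP cells over all chemicals called 1 member (FGF2 lost, 1.32, limma adjusted p = 0.055), and the count of members called stayed the same elsewhere.

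The summed FGFBP1 level in CDKN2A cells was 503 CPM on TMM library sizes and 540 CPM on total counts. The background moved as well: without NRG1 NNK replicate 2, NNK called 2230 genes in place of 819, and 2145 without the count filter, and NRG1 against HcRed cells over all chemicals called 603 in place of 126. DESeq2 called fewer genes in each comparison under DMSO, such as 46 in place of 103 for FGFR1 cells. Members with under 10 counts per well could show only large differences at this depth.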
